A study of Mus musculus with 4 samples.

Results

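The 10 genes described here are 9 enzymes of glycolysis, namely Hk1, Aldoa, Tpi1, Gapdh, Pgk1, Pgam1, Eno1, Pkm and Ldha, and Slc2a3, which encodes the glucose transporter GLUT3. They were picked by name, with results of these data known, out of 35963 genes in the tables, and they are followed here across cell classes and feeding state. Because the choice rests on these data, the values that compare tanycyte-like cells with neurons and the fasted with the fed plates are given for these genes as descriptions with no test. Adjusted p-values of these genes in other comparisons of cell classes come from the same data and are no independent test. Hypothalamic cells of C57BL/6 mice that carry Lepr-cre;Rosa-LSL-tdTomato were sorted into plates of 384 wells, and their transcripts were counted with CEL-seq2, a method that tags each molecule with a unique molecular identifier and reads the 3′ end of the mRNA. One plate came from mice fasted for 24 h and 3 plates came from fed mice of the same genotype. All groups carry the Cre and the reporter. Once Cre, driven from the Lepr locus, has recombined the reporter the mark persists, so a sorted cell need not hold Lepr mRNA. The number, sex and collection time of the mice behind a plate are not given in the sources used. Separate animals per plate are nowhere stated, and each p-value therefore covers the spread between plates alone. With 1 fasted plate, the plate and the feeding state cannot be told apart.

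Glycolysis splits glucose into pyruvate in the cytosol. Hexokinase traps the sugar, aldolase and triose phosphate isomerase make and interconvert the triose phosphates, GAPDH oxidises them, phosphoglycerate kinase and pyruvate kinase make ATP, and lactate dehydrogenase converts pyruvate to lactate while restoring NAD+. In the hypothalamus, tanycytes are radial glia of the ventricular floor and sense glucose, astrocytes are known for making lactate, and neurons take up glucose mainly through GLUT3. Several of these genes are known targets of the hypoxia-inducible factors, which bind the core motifs ACGTG and GCGTG.

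The kept wells numbered 270 on the fasted plate and 356, 322 and 331 on fed plates 1, 2 and 3, 1279 of 1536 in all. Their median depth was 9708.5 transcripts on the fasted plate and 13507, 7750 and 8356 on the fed plates, and the median mitochondrial share was 8.34% on the fasted plate and 5.76 to 6.51% on the fed plates. Of the kept wells, 84.4% on the fasted plate had Xist and no Y-linked transcripts, against 6.74, 51.6 and 42.0% on fed plates 1, 2 and 3, so the sex of the cells differed with the plate. Tanycyte-like cells, 3 clusters that met 8 to 10 of 10 tanycyte markers, numbered 40 on the fasted plate and 49, 73 and 72 on the fed plates. Neurons numbered 48 on the fasted plate and 124, 113 and 104 on the fed plates. Neurons had a median of 58636.5 transcripts per cell on the fasted plate and 25155.5 to 30504.5 on the fed plates, and tanycyte-like cells had 9233 on the fasted plate and 6073 to 7744 on the fed plates. All plates use the same 384 well barcodes, so shared barcodes cannot reveal shared cells. Levels are CPM, a gene's transcripts scaled to a common total over the summed transcripts of a class on a plate. Fewer cells are already divided out in a CPM, but a larger share of other transcripts and fewer copies of a gene cannot be told apart. Because only 3′ ends were counted, levels are compared across cells for 1 gene and not between genes.

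The start regions of the 4 genes with the largest differences between fasted and fed tanycyte-like cells are shown first, to set the sequence beside the values that follow. Each runs from 250 bases before to 50 after the RefSeq start on GRCm38.p6, 5′ to 3′ on the gene's strand. Capitals mark ACGTG or GCGTG on either strand, a CACGTG being an ACGTG match on both strands. The Eno1 region lies at chr4:150236458-150236757 on the plus strand, the Pgk1 region at chrX:106186850-106187149 on the plus strand, the Ldha region at chr7:46845554-46845853 on the plus strand and the Tpi1 region at chr6:124814109-124814408 on the minus strand.
Eno1: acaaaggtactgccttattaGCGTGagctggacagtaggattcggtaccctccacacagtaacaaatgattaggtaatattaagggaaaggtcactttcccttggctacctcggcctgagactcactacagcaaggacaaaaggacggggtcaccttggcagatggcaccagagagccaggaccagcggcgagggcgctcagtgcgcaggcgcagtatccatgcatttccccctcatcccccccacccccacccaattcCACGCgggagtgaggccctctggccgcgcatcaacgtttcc
Pgk1: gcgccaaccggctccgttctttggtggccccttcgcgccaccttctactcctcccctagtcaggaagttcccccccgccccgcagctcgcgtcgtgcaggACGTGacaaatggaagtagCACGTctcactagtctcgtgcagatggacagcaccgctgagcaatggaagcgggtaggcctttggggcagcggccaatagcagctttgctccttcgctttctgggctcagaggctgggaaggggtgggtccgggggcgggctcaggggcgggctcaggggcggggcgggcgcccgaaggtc
Ldha: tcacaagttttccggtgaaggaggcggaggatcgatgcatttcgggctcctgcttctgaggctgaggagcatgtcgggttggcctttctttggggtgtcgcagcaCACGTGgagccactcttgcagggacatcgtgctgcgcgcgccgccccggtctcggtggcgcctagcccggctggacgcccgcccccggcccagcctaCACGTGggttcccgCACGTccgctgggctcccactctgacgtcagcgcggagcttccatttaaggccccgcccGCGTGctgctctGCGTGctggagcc
Tpi1: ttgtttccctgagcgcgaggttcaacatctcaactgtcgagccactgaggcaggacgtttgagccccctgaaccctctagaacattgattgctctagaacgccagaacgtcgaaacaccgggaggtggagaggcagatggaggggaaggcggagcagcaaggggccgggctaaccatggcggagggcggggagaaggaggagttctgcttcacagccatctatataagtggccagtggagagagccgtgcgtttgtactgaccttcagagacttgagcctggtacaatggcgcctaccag
The Ldha region held 5 matches to ACGTG and 2 to GCGTG, with both of its CACGTG copies counted on each strand. The Pgk1 region held 2 matches to ACGTG, the Eno1 region 2 to GCGTG, and in the Tpi1 region neither motif was found. Of the 10 genes, 9 had a RefSeq start region, and 5 of these 9 held at least 1 of the motifs. The RefSeq start lay 244 bases from the start GENCODE marks as principal for Eno1, 138 for Tpi1, 35 for Ldha and 0 for Pgk1. For Aldoa and Pkm, which held neither motif, it lay 304 and 208 bases away. A motif close to the principal start can therefore lie outside a region. Among all 32851 mouse start regions of this length, 19.6% held ACGTG, 32.4% held GCGTG, 43.8% held either and 7.15% held CACGTG. A match is a run of letters and not a measured binding site, and binding was not measured here.

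Fasted tanycyte-like cells had lower levels of Eno1, Ldha, Tpi1 and Pgk1 than tanycyte-like cells of any fed plate. Eno1, the enolase that makes phosphoenolpyruvate (chr4:150236721-150248879, plus strand, GRCm38), was at 133 CPM on the fasted plate, against 336, 255 and 320 CPM on the fed plates. Ldha, the lactate dehydrogenase subunit that favours lactate production (chr7:46841475-46855627, plus strand), was at 190 CPM on the fasted plate, against 469, 377 and 368 CPM on the fed plates. For both genes the fasted plate lay below every fed plate, at -1.20 (SE 0.31) for Eno1 and -1.09 (SE 0.30) for Ldha on the log2 scale, fasted minus fed. Tpi1, which interconverts the triose phosphates (chr6:124810586-124814296, minus strand), was at 182 CPM on the fasted plate and at 449, 320 and 362 CPM on the fed plates. Pgk1, the ATP-making kinase of the payoff phase (chrX:106187100-106203699, plus strand), was at 54.6 CPM on the fasted plate and at 161, 122 and 77.9 CPM on the fed plates. Their log2 differences were -1.05 (SE 0.30) for Tpi1 and -1.10 (SE 0.38) for Pgk1, and for Pgk1 the fed plates themselves were widely spread.

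Pkm, Aldoa and Hk1 were lower by less in fasted tanycyte-like cells. Pkm, the pyruvate kinase of most tissues (chr9:59656368-59679375, plus strand), was at 328 CPM on the fasted plate, against 690, 496 and 481 CPM on the fed plates. Aldoa, an aldolase (chr7:126795234-126800751, minus strand), was at 481 CPM on the fasted plate, against 894, 669 and 630 CPM on the fed plates. Hk1, the hexokinase that commits glucose to the cell (chr10:62268855-62379908, minus strand), was at 148 CPM on the fasted plate, against 213, 205 and 199 CPM on the fed plates. The fasted plate was lowest for each, with log2 differences of -0.76 (SE 0.28), -0.60 (SE 0.27) and -0.47 (SE 0.30) in that order. Slc2a3 (chr6:122727809-122801640, minus strand) rested on few transcripts, 7 on the fasted plate and 14, 12 and 24 on the fed plates, or 18.2 CPM against 40.3, 24.3 and 41.5 CPM. Its log2 difference was -0.95 with an SE of 0.61, so its size is poorly fixed. The rows of Pgam1, the phosphoglycerate mutase, and Gapdh held 4 and 3 transcripts on the fasted plate and 2 to 4 per fed plate, under the minimum for the fit.

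Counted over the 10 genes, 8 were below every fed plate in fasted tanycyte-like cells, 1 (Pgam1) was above and 1 (Gapdh) lay within. Over all 10249 genes fitted in this class, 31.3% lay below every fed plate and 31.4% above. The median log2 difference of the 8 genes that could be fitted was -0.997, and that of all genes fitted was -0.04. Other values moved with the fasted plate. In its tanycyte-like cells, 7 pars tuberalis markers summed to 1104 CPM with 0 of them at 0, against 40.5 to 273 CPM on the fed plates, where 2 to 4 were at 0. Markers of newly formed oligodendrocytes summed to 572 CPM on the fasted plate and 306 to 329 CPM on the fed plates, and those of microglia to 78.0 CPM on the fasted plate and 19.0 to 44.6 CPM on the fed plates. The 10 tanycyte markers summed to 8290 CPM on the fasted plate and 8881 to 10361 CPM on the fed plates. The part of such transcripts, of the mitochondrial share (a median of 11.6% on the fasted plate and 8.53 to 11.1% on the fed plates) or of the sex of the cells in these differences was not tested. Within Xist-only cells, 6 of 7 genes fitted were lower in fasted cells, and Hk1 was at 0.55. That fit rests on 34 fasted cells and on 24 and 11 cells of fed plates 2 and 3. Fed plate 1, with 2 such cells, fell under the minimum of 5. No share of all genes fitted is set beside the count in Xist-only cells.

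**Figure D1:**
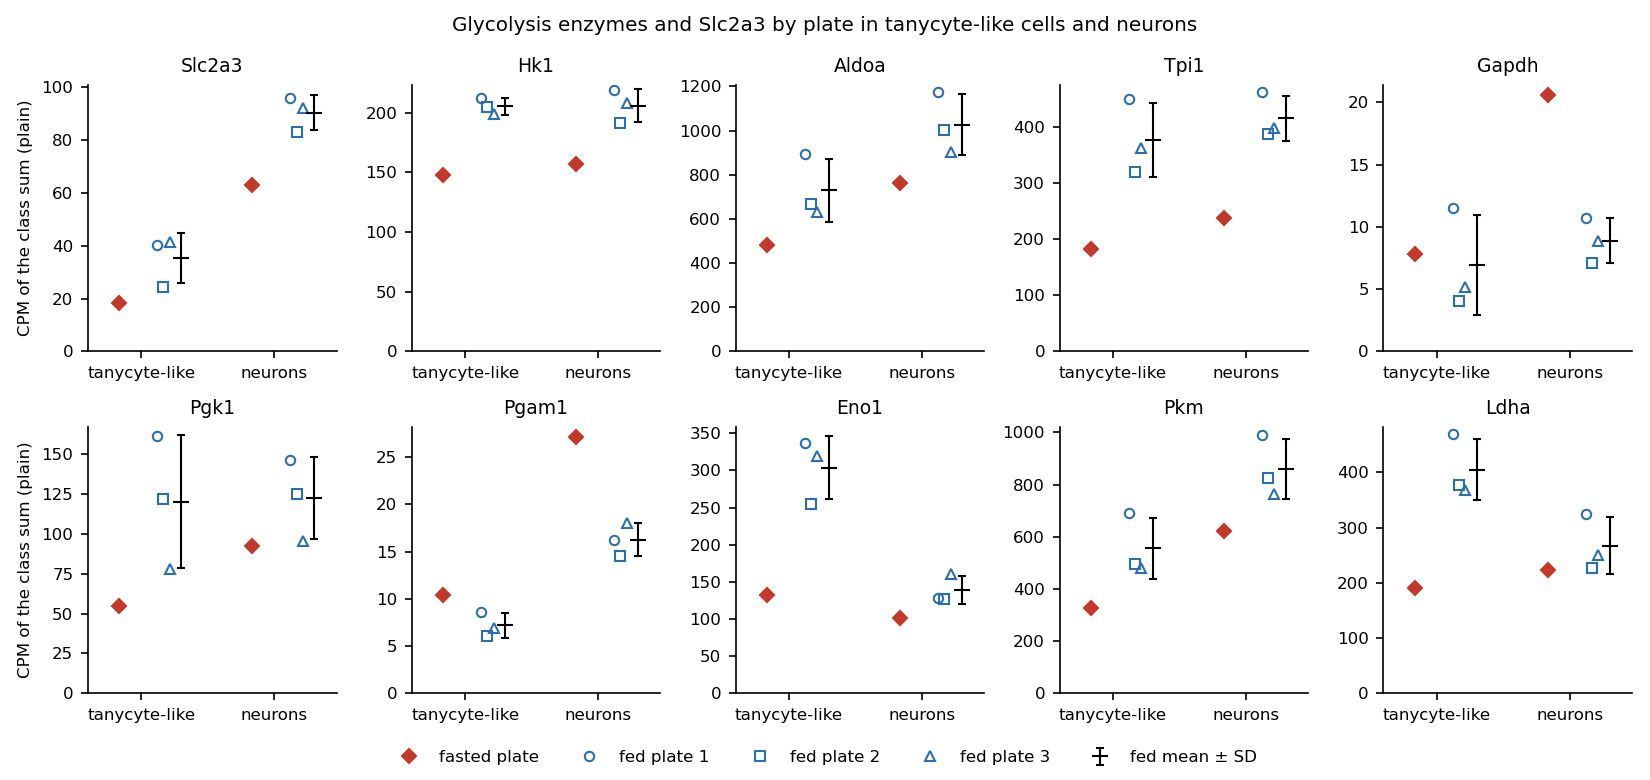
CPM of the 10 genes on each plate in tanycyte-like cells and in neurons, with filled points for the fasted plate, open points for the 3 fed plates, and bars for the fed mean and SD (each gene has its own axis). In tanycyte-like cells the fasted point of Eno1, at 133 CPM, lies below the lowest fed point, at 255 CPM, while in neurons the fasted points of Pgam1, at 27.2 CPM, and Gapdh, at 20.6 CPM, lie above the fed points.

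The 3 tanycyte-like clusters differed in level among themselves. Cluster 11, led by Scn7a and Col25a1, had the highest Eno1, 531, 504 and 461 CPM on the fed plates, and held 3 fasted cells, too few for a level. Cluster 4, led by Rax and Nnat, had 161 CPM of Eno1 on the fasted plate and 288 ± 64.2 CPM on the fed plates (SD, n = 3). Cluster 1, led by Crym and Frzb, had 89.6 CPM on the fasted plate and 182 ± 15.7 CPM on the fed plates. Ldha was at 128 CPM in fasted cluster 1 cells and at 347 ± 71.7 CPM in fed ones, and at 304 CPM in fasted and 414 ± 53.1 CPM in fed cluster 4 cells. The shares of the clusters differed between plates, so the values were also taken within a cluster. Fasted minus fed, all 7 genes fitted were negative in cluster 1, with a median of -0.94 on the log2 scale, and all 7 in cluster 4, with a median of -0.79. Values of all genes fitted in a cluster are not set beside these, so nothing particular to the 7 genes is read from them.

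Neurons of the fasted plate showed smaller differences in the same 8 genes. Tpi1 was at 237 CPM in fasted neurons, against 461, 387 and 397 CPM in fed neurons, a log2 difference of -0.79 (SE 0.23). Slc2a3, the neuronal glucose transporter, was at 63.1 CPM in fasted neurons, against 95.9, 82.9 and 92.3 CPM in fed neurons, at -0.50 on the log2 scale. Eno1 was at 101 CPM in fasted neurons, against 129, 127 and 160 CPM in fed neurons, and Pkm at 622 CPM, against 990, 826 and 765 CPM. Each of these fasted values lay below every fed plate. Ldha, at 224 CPM in fasted neurons and 325, 226 and 250 CPM in fed neurons, was only just below the lowest fed plate. In all, 8 of the 10 genes were below every fed plate in neurons and 2, Pgam1 and Gapdh, were above, where 32.4% of all genes fitted were below and 29% above. The median log2 difference of the 10 genes was -0.40 and that of all genes fitted was -0.02. This median includes Pgam1 and Gapdh, which the median of 8 genes in tanycyte-like cells leaves out, so the 2 medians cover unlike sets. The pars tuberalis markers were high in fasted neurons too, at 1107 CPM against 283 to 423 CPM in fed neurons. So were oligodendrocyte markers, at 367 CPM against 156 to 224 CPM, microglia markers, at 47.0 CPM against 7.47 to 15.4 CPM, and the median mitochondrial share, at 7.90% against 5.43 to 6.54%. Their part in these differences was not tested.

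The difference between the log2 changes of tanycyte-like cells and of neurons was negative for all 10 genes in the fit on all cells. It was -0.93 (SE 0.30) for Ldha, -0.82 (SE 0.32) for Eno1 and -0.79 (SE 0.39) for Pgk1, and between -0.17 and -0.53 for Hk1, Aldoa, Pgam1, Tpi1, Pkm and Slc2a3. Gapdh stood at -1.03 with an SE of 1.14. The median of this difference over all genes fitted was -0.09. The sign turned positive in Xist-only cells for Hk1 (0.96), Slc2a3 (0.64) and Pgam1 (0.28), and in thinned cells for Pgk1 (0.61), Hk1 (0.08) and Slc2a3 (5.51, SE 3.62). Neurons here pool AgRP-like and other neurons. Ldha was at 260 CPM in fasted and 222 ± 41.0 CPM in fed AgRP-like neurons (SD over fed plates). In other neurons Ldha was at 170 CPM fasted and 335 ± 111 CPM fed, a fall like that of tanycyte-like cells. Tpi1 in AgRP-like neurons, at 207 CPM fasted and 415 ± 46.7 CPM fed, also fell much as in tanycyte-like cells. Both changes use the same plates, and the signs of the 10 genes are not independent of each other.

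**Figure D2:**
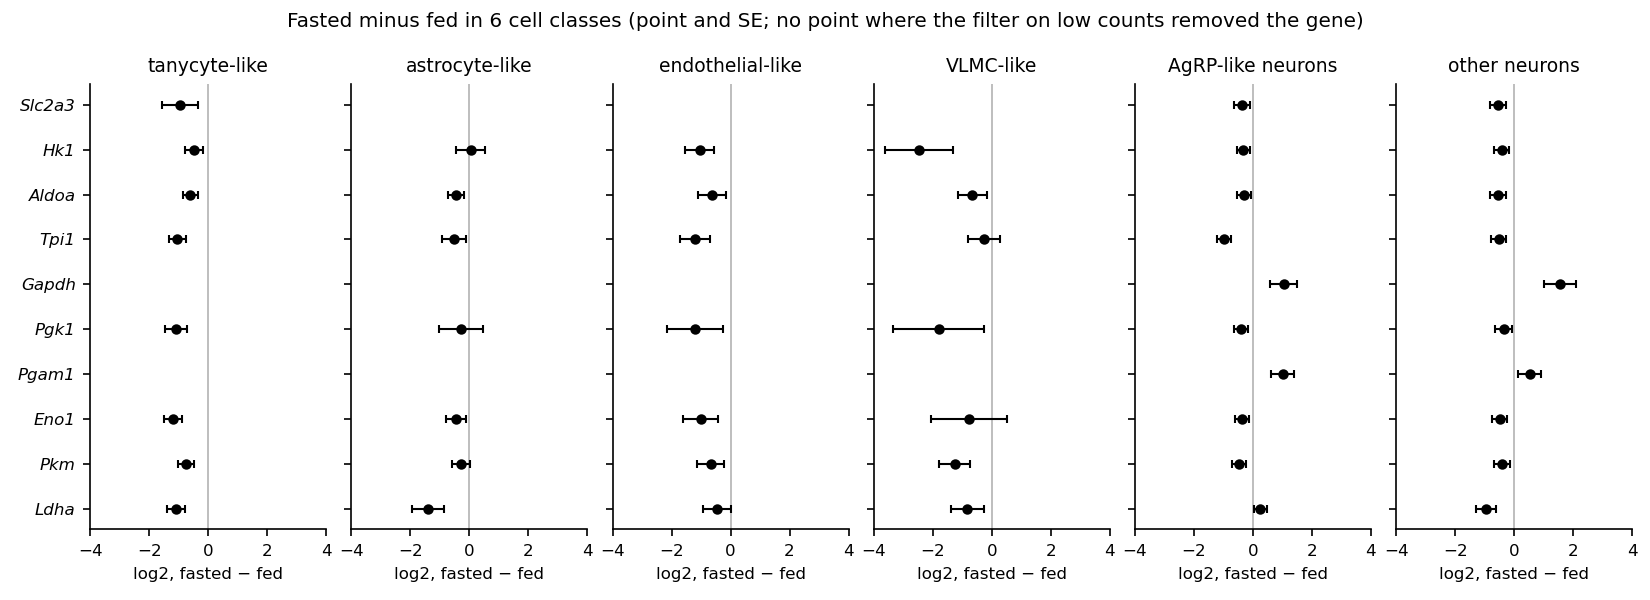
Fasted minus fed on the log2 scale for each gene (rows) in 6 cell classes (panels; VLMC, vascular and leptomeningeal cell), from the fit of plate sums, with bars of 1 SE. In tanycyte-like cells the 8 genes fitted run from -1.20 for Eno1 to -0.47 for Hk1, while the row of Gapdh is at 1.04 in AgRP-like and 1.56 in other neurons.

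Most transcripts with Gapdh-like sequence were counted outside the row named Gapdh. In the last 500 bases of its transcripts, 90.5% of 50-base stretches also occur in other genes, and 203 of its pseudogenes in the tables held 17392 transcripts against 186 for the Gapdh row. Gm2546, at 3116 transcripts, and Gm8055, at 2615, were the largest pseudogene rows. Gapdh itself (chr6:125161715-125166467, minus strand) was at 20.6 CPM in fasted neurons and at 10.7, 7.09 and 8.87 CPM in fed neurons, and was higher on the fasted plate at 1.22 (SE 0.36) on the log2 scale. The pseudogene rows summed to 743 CPM in fasted neurons, against 1286, 1217 and 1152 CPM in fed neurons, and to 408 CPM in fasted tanycyte-like cells, against 851, 666 and 689 CPM in fed ones. The sum lay below every fed plate in both classes, where the Gapdh row lay above them in neurons and among them in tanycyte-like cells. When the pseudogene rows were added to Gapdh, its log2 difference became -0.67 in neurons and -0.84 in tanycyte-like cells. Whether the reads came from Gapdh or from its pseudogenes cannot be told apart in these tables, and the row alone is read here as uncertain.

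**Figure D3:**
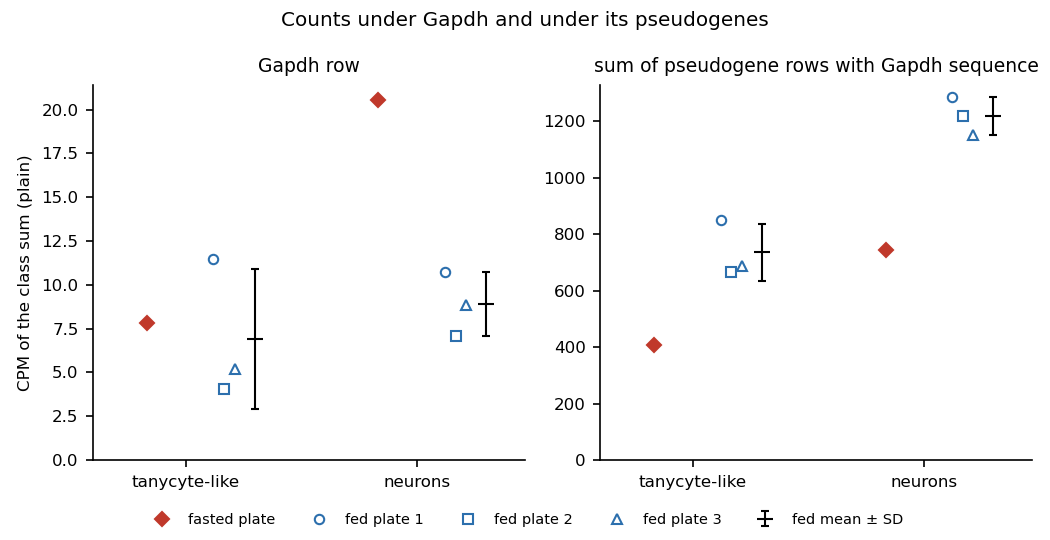
CPM of the Gapdh row and of the sum of its pseudogene rows on each plate, in tanycyte-like cells and in neurons, with filled points for the fasted plate, open points for the fed plates and bars for the fed mean and SD. The Gapdh row is higher on the fasted plate in neurons, at 20.6 CPM, while the pseudogene sum is lower there, at 743 CPM against at least 1152 CPM on the fed plates.

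Other members shared sequence to a lesser degree in the tables. Eno1 shared 75.5% of the 50-base stretches in its last 500 bases with other genes, but those genes held 14 transcripts against 2610 for Eno1. Pgam1 shared 0% there and 41.5% over its whole transcripts, with 1 transcript in the other genes against 271 of its own. Its row was low in every class, at 10.4 CPM in fasted and 6.08 to 8.63 CPM in fed tanycyte-like cells, and at 27.2 CPM in fasted and 14.5 to 18.1 CPM in fed neurons. Aldoa shared 3.31%, mainly with Aldoart1, which held 287 transcripts. Slc2a3 shared none. Hk1 overlaps an antisense gene, Hk1os, whose row held 19 transcripts.

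Tanycyte-like cells had more Eno1 and less Slc2a3, Pkm and Aldoa than neurons. Eno1 was at 133 CPM in fasted and 304 ± 42.9 CPM in fed tanycyte-like cells, against 101 CPM in fasted and 139 ± 18.5 CPM in fed neurons (SD, n = 3 fed plates). Its tanycyte-like values exceeded those of neurons on each of the 4 plates, with a log2 difference of 0.90 (SE 0.15), tanycyte-like cells minus neurons. Ldha was at 190 CPM in fasted tanycyte-like cells and 224 CPM in fasted neurons, but at 405 ± 55.6 CPM in fed tanycyte-like cells and 267 ± 51.6 CPM in fed neurons. The order of the classes for Ldha thus differed between feeding states, and its log2 difference over all plates was 0.35 (SE 0.14).

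Slc2a3 showed the largest difference in the opposite direction. It was at 18.2 CPM in fasted tanycyte-like cells and 63.1 CPM in fasted neurons, and at 35.4 ± 9.59 CPM in fed tanycyte-like cells and 90.3 ± 6.71 CPM in fed neurons. The log2 difference was -1.50 (SE 0.21), and tanycyte-like cells were lower on all 4 plates. After every cell was thinned to 1000 transcripts, Slc2a3 was seen in 3.42% of tanycyte-like cells (8 of 234; exact Clopper-Pearson 95% interval 1.49 to 6.63, counting error only) and in 8.48% of neurons (33 of 389; 5.91 to 11.7). Unthinned, the shares were 17.9% in tanycyte-like cells and 81.5% in neurons. Endothelial-like cells, which rely on Slc2a1, showed it in 1.97% of thinned cells (3 of 152; 0.409 to 5.66), and these intervals of tanycyte-like and endothelial-like cells overlap. In CPM on fed plates, tanycyte-like cells were at 35.4 ± 9.59 and endothelial-like cells at 6.36 ± 8.50.

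Pkm and Aldoa were lower in tanycyte-like cells as well, at -0.78 (SE 0.12) and -0.62 (SE 0.12) on the log2 scale. Pkm averaged 556 ± 117 CPM in fed tanycyte-like cells and 860 ± 116 CPM in fed neurons, and Aldoa 731 ± 143 CPM in fed tanycyte-like cells and 1027 ± 137 CPM in fed neurons. Tpi1, Pgk1 and Hk1 lay between -0.27 and -0.10, with SEs of 0.13 to 0.16. The rows of Pgam1 and Gapdh were at -1.33 (SE 0.39) and -0.80 (SE 0.47). Neurons held more transcripts per cell, and in cells thinned to 1000 transcripts 4 of the 6 genes still fitted were positive. There Tpi1 was at 0.17 and Hk1 at 0.41, while Eno1 was at 0.76, Ldha at 0.47, Aldoa at -0.21 and Pkm at -0.45. The signs of Tpi1 and Hk1 were thus opposite after thinning, and those of Eno1, Ldha, Aldoa and Pkm were not.

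**Figure D4:**
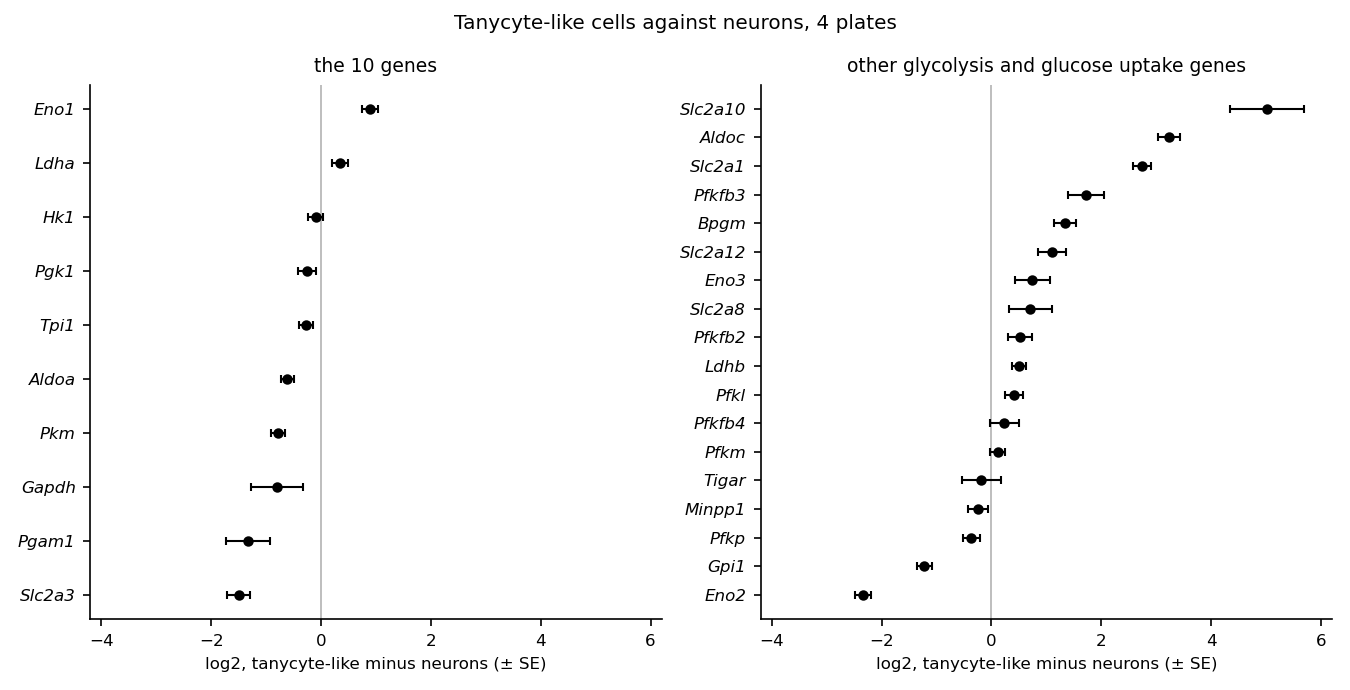
Log2 difference of tanycyte-like cells minus neurons for the 10 genes (left) and 18 other glycolysis and glucose uptake genes (right), with bars of 1 SE. Among the 10, Eno1 stands highest at 0.90 and Slc2a3 lowest at -1.50, and among the others Slc2a10 at 5.02 and Eno2 at -2.34.

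The rest of the pathway, from lists chosen with earlier results of these data known, was tested in the same fit. Of 18 other glycolysis and glucose uptake genes fitted and reported, 9 were higher and 3 lower in tanycyte-like cells than in neurons, where 56.3% of all genes fitted passed the threshold of 0.05 (edgeR's quasi-likelihood test, Benjamini-Hochberg adjusted). Those higher were led by Slc2a10, a glucose transporter with 5 to 8 transcripts per plate, at 5.02, Aldoc, the brain aldolase, at 3.23 (SE 0.21, adjusted p = 4.76e-08) and Slc2a1, the transporter GLUT1, at 2.74 (SE 0.17, adjusted p = 3.88e-15). Slc2a1 rested on 64 transcripts in fasted and 81 to 104 in fed tanycyte-like plates. Those lower were Eno2, the neuronal enolase, at -2.34 (SE 0.15, adjusted p = 9.39e-15), Gpi1, the glucose phosphate isomerase, at -1.23 (SE 0.14, adjusted p = 2.57e-09), and Pfkp, a phosphofructokinase, at -0.37 (adjusted p = 0.0498). Eno1 and Eno2, and Slc2a1 and Slc2a3, thus had opposite signs in this comparison.

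Genes of neighbouring pathways were counted against the same 56.3% of all genes called in either direction, and nothing particular to a list is read from its count. Of 15 glycogen genes, 10 were higher in tanycyte-like cells, among them Ppp1r3c, a glycogen-targeting phosphatase subunit, at 4.41, and Pygb, the brain glycogen phosphorylase, at 2.08, and Gsk3b alone was lower, at -0.54. Of 20 genes of lactate and pyruvate handling, 5 were higher, with the monocarboxylate transporter Slc16a1 at 2.18, and 9 lower, with the neuronal transporter Slc16a7 at -1.95 and Pdp1 at -2.32. Of 7 pentose phosphate genes, 5 were higher, from 0.42 for Tkt to 0.72 for Rpe. Of 20 hypoxia-inducible genes, of which Slc2a1, Pfkfb3 and Pdk1 are also counted above, 9 were higher and 6 lower, with Adm at 4.94, Vegfa at 2.84 and P4ha2 at -1.29. Neither of the 2 gluconeogenesis genes passed in edgeR, 1 had an unadjusted p under 0.05, and DESeq2 called 0 of them.

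Few of these genes passed the test in fasted tanycyte-like cells, and a gene that missed the threshold is not shown to be unchanged. Bsg, the chaperone of the lactate transporters, fell by 1.09 on the log2 scale (SE 0.28, edgeR adjusted p = 0.00933), with 104 transcripts on the fasted plate and 256, 235 and 300 on the fed plates. The call was lost with DESeq2's Wald test (adjusted p = 0.0639), in thinned cells (0.365), in Xist-only cells (0.656) and in cluster 4 alone (0.474), and the difference ran from -1.72 in cluster 1 to -0.66 in cluster 4. It was the only one called of 19 genes of lactate and pyruvate handling, while 3.24% of all genes fitted were called. None of the 17 other glycolysis and uptake genes was called by edgeR, 4 had an unadjusted p under 0.05, and DESeq2 called 0. The lower Bsg was not particular to tanycyte-like cells. Fasted minus fed, Bsg was at -1.13 (SE 0.47) in endothelial-like and -0.89 (SE 0.33) in astrocyte-like cells. In vascular and leptomeningeal cell-like cells it was at -0.78 (SE 0.48). Aldoc was at 3379 CPM after TMM scaling in fasted tanycyte-like cells and at 2917 ± 559 CPM in fed ones. Of the 14 glycogen, 6 pentose phosphate and 17 other hypoxia-inducible genes, edgeR and DESeq2 each called 0, and 1, 1 and 3 of them had an unadjusted p under 0.05 in edgeR.

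Neurons were next split into AgRP-like neurons, which make Agrp and Npy and drive feeding, and all other neurons, whose main cluster was led by Pomc, Gal and Cartpt. AgRP-like neurons numbered 23 on the fasted plate and 80, 59 and 28 on the fed plates, and other neurons 25 on the fasted plate and 44, 54 and 76 on the fed plates. The AgRP-like cells came from different clusters, with 22 of 23 fasted cells in cluster 21, 74 of 80 cells of fed plate 1 in cluster 5, and the cells of fed plates 2 and 3 mostly in cluster 3. Slc2a3 was lower in AgRP-like neurons on every plate, at 54.9 CPM on the fasted plate and 80.9, 67.2 and 67.4 CPM on the fed plates, against 75.2 CPM and 128, 102 and 104 CPM in other neurons. The ranges of the fed plates did not overlap. With plate as a block, the log2 difference was -0.55 (SE 0.12, edgeR adjusted p = 0.00452). Slc2a3 was the only one of the 10 genes called, where 15.3% of all genes fitted were called. As the 10 genes were chosen with results of these data known, the call on Slc2a3 is no independent test. DESeq2's Wald test gave an adjusted p of 0.0658, and over the alternatives the difference ran from -0.58 to -0.52 with an adjusted p of 0.00157 to 0.0735. Each of the remaining 9 genes missed the threshold, but Ldha, at -0.25 over all plates, passed it without the fasted plate, at -0.53 (adjusted p = 0.000816).

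Outside the 10 genes, AgRP-like neurons were higher in Ldhb, the lactate dehydrogenase subunit that favours pyruvate, at 0.35 (SE 0.10, edgeR adjusted p = 0.0206), and in the glycogen phosphorylase Pygl, at 1.20. They were lower in Pfkfb3, which makes an activator of phosphofructokinase, at -1.32, and in Vegfa, at -2.31. Both are on the hypoxia-inducible list, whose called genes went in both directions. Ddit4, at 1.34, P4ha2, at 0.87, and Bnip3l, at 0.61, were higher in AgRP-like neurons. Of 20 genes of lactate and pyruvate handling edgeR called 0, with 2 at an unadjusted p under 0.05, and DESeq2 called 0.

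Ldha was lower on the fasted plate in other neurons and within the fed values in AgRP-like neurons. In AgRP-like neurons it was at 260 CPM on the fasted plate, within the fed values of 261, 180 and 226 CPM. In other neurons it was at 170 CPM on the fasted plate, below the fed values of 462, 281 and 261 CPM. The log2 differences, fasted minus fed, were 0.25 (SE 0.22) in AgRP-like and -0.95 (SE 0.35) in other neurons. The fitted difference between them was 1.21 (SE 0.22), a comparison added after these values had been seen and given as a description with no test. Its SE was 0.37 with DESeq2's Wald test, and in thinned cells the difference was 0.85 with an SE of 0.92. Among the other neurons, cluster 0 had 165 CPM on the fasted plate and 468, 282 and 252 CPM on the fed plates, and cluster 7 had 175 CPM on the fasted plate and 279 and 272 CPM on the 2 fed plates with enough cells.

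**Figure D5:**
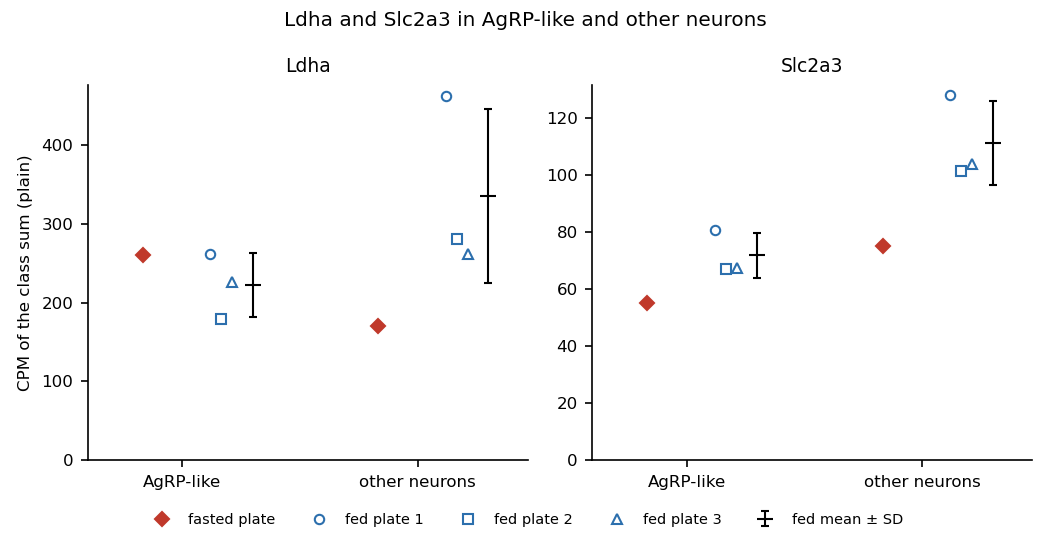
CPM of Ldha and Slc2a3 on each plate in AgRP-like and other neurons, with filled points for the fasted plate, open points for the fed plates and bars for the fed mean and SD. The fasted Ldha value of AgRP-like neurons, 260 CPM, lies within the fed values, and that of other neurons, 170 CPM, lies below them; Slc2a3 is lower in AgRP-like neurons on all 4 plates.

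Tpi1 was at 207 CPM in fasted AgRP-like neurons, against 468, 397 and 380 CPM in fed ones, and at 282 CPM in fasted other neurons, against 447, 374 and 405 CPM in fed ones. Its log2 difference in AgRP-like neurons was -0.98 (SE 0.23), the lowest of the 10 genes there. Of the 10 genes, 7 were below every fed plate in AgRP-like neurons and 8 in other neurons, against 33.6% and 31.6% of all genes fitted. Of the other lists, Pfkl, a phosphofructokinase, at -1.19 (SE 0.27, edgeR adjusted p = 0.00404), and Pygl, at -1.29 (adjusted p = 0.0264), fell in fasted AgRP-like neurons, where 5.29% of all genes fitted were called.

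Astrocyte-like and endothelial-like cells place the tanycyte-like levels among those of other non-neuronal cells. Ldha was lower in astrocyte-like than in tanycyte-like cells, at 43.3 CPM on the fasted plate and 97.4 and 140 CPM on fed plates 2 and 3, against 190 CPM and 405 ± 55.6 CPM (SD, n = 3) in tanycyte-like cells, a log2 difference over plates of -1.51 (SE 0.26, edgeR adjusted p = 7.12e-08). Eno1 was higher in astrocyte-like cells, at 0.58 (SE 0.22, adjusted p = 0.0267), with 220 CPM on the fasted plate and 316 ± 12.2 CPM on 2 fed plates, against 133 CPM and 304 ± 42.9 CPM (n = 3 fed plates) in tanycyte-like cells. Of 7 members fitted these 2 were called, against 32.7% of all genes. The members were chosen with results of these data known, so these calls are no independent test. The call on Eno1 was lost in 9 of the alternatives, among them DESeq2's Wald test (adjusted p = 0.255) and leaving out the fasted plate (0.36 on the log2 scale, adjusted p = 0.295).

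Endothelial-like cells were lower than tanycyte-like cells in 4 of 7 members fitted, against 46.1% of all genes called. These were Eno1 at -1.52 (SE 0.24, edgeR adjusted p = 1.63e-06), Pgk1 at -1.40 (SE 0.31, adjusted p = 0.000328), Tpi1 at -1.04 (SE 0.22, adjusted p = 0.000142) and Aldoa at -0.69 (SE 0.20, adjusted p = 0.00516). Ldha, at 0.03, Pkm, at -0.24, and Hk1, at -0.36, missed the threshold. Here too the members were chosen with results of these data known, and the calls are no independent test. Genes of the other lists were called in both directions. Endothelial-like cells were higher in Slc2a1, at 3.59, and Slc16a1, at 2.71, carriers of glucose and lactate at the blood-brain barrier. Bsg, the chaperone of the lactate transporters, was higher too, at 3.77. Among those lower were Ppp1r3c, at -4.69, Aldoc, at -4.51, Pygl, at -3.67, Pygb, at -3.44, Vegfa, at -3.42, and Ldhb, at -3.21. One endothelial-like cluster, of 57 cells, came entirely from fed plate 1.

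Across all classes of the fed plates, the order of levels differed from gene to gene. Eno1 was highest in astrocyte-like (316 ± 12.2 CPM), tanycyte-like (304 ± 42.9 CPM) and oligodendrocyte precursor-like cells (292 ± 25.6 CPM), which do not differ beyond their spread. It was lower in other neurons (145 ± 16.1 CPM), AgRP-like neurons (133 ± 17.9 CPM) and endothelial-like cells (98.7 ± 27.5 CPM), and lowest in oligodendrocyte-like cells (20.6 CPM). Ldha was highest in tanycyte-like cells (405 ± 55.6 CPM), other neurons (335 ± 111 CPM) and endothelial-like cells (331 ± 93.8 CPM), whose spreads overlap, and low in astrocyte-like (97.4 and 140 CPM) and oligodendrocyte-like cells (57.9 CPM). Slc2a3 was highest in other neurons (111 ± 14.8 CPM), then in AgRP-like neurons (71.8 ± 7.86 CPM) and microglia-like cells (45.7 ± 23.1 CPM), and lowest in endothelial-like cells (6.36 ± 8.50 CPM).

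The fasted plate was also compared in the 3 smaller classes. In astrocyte-like cells Ldha was at -1.39 (SE 0.54) on the log2 scale, fasted minus fed, and the other members fitted lay between -0.52 and 0.04. In endothelial-like cells the 7 members fitted lay between -1.22 (SE 0.95) for Pgk1 and -0.47 for Ldha. The 5 erythrocyte markers summed to 21235 CPM in fasted endothelial-like cells, against 0 to 1119 CPM in fed ones, and the pars tuberalis markers to 1051 CPM, against 90.3 to 282 CPM. In astrocyte-like cells the pars tuberalis markers summed to 1076 CPM on the fasted plate and to 97.4 and 179 CPM on fed plates 2 and 3, and the part of such transcripts in these differences was not tested. In vascular and leptomeningeal cell-like cells the 7 members fitted lay between -2.48 (SE 1.16) for Hk1 and -0.27 for Tpi1. Hk1 and Pgk1 were each at 13.9 CPM there on the fasted plate. With 71899 transcripts in that sum, both values are near the floor. The SEs in these classes are wide, from 13 to 44 fasted cells. Of the 7 members fitted in each class, 5 lay below every fed plate in astrocyte-like, 7 in endothelial-like and 5 in vascular and leptomeningeal cell-like cells, against 35.7, 28.9 and 35.7% of all genes fitted.

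Because the sex of the cells differed between plates, Xist-only and Y-only cells of the same fed plates were compared. In tanycyte-like cells, 35 Xist-only and 78 Y-only cells on fed plates 2 and 3 gave 0 calls among 7 members with edgeR, 1 of them (Hk1, at -1.06, SE 0.42, adjusted p = 0.939) with an unadjusted p under 0.05. Over all genes 0.0708% were called. In neurons, 129 Xist-only and 145 Y-only cells on 3 plates gave 0 calls among 10 members, none at an unadjusted p under 0.05, and 0.193% of all genes were called. DESeq2 was not run on these sums, and a p that misses the threshold does not show that the levels were alike.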

How the data were processed

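The samples were 1 plate of fasted and 3 plates of fed cells. The deposited values are expected counts, UMIs per gene and well that the authors corrected for UMI collisions, as the values show: each traced to a whole number of the 4096 possible UMIs within a tolerance of 1e-06. The submitters' processing notes name Trim Galore, STAR and the build mm10. The UMI counter and its annotation are not given in the sources used. Expected counts were rounded to whole numbers. Wells with at least 1000 transcripts and a mitochondrial share under 30% were kept. Clustering used scanpy 1.11.5 with leidenalg 0.10.2 under Python 3.11.15, on 2000 variable genes, 30 components and 10 neighbours at Leiden resolution 1.5, leaving out the listed metabolic genes and sex-linked markers, and clusters were named from 17 marker sets when at least 3 markers were enriched. The threshold for neurons, 40 neuron marker transcripts per 10000, was set after the data were seen. No doublet caller was run.

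Counts were summed per class and plate (at least 5 cells) and tested by quasi-likelihood in edgeR 4.0.16 (run in R 4.3.3, filterByExpr, TMM, Benjamini-Hochberg over all genes fitted, threshold 0.05), with plate as a block between classes of the same plates. The fit of 1 fasted against 3 fed plates has 2 residual degrees of freedom and assumes that the fasted plate varies like the fed ones. Levels are CPM of plain totals unless TMM scaling is named, and log2 differences come from the fit. The code was tested on simulated data with a set spread between sums. For fasted against fed tanycyte-like cells, it recovered 8% of genes changed by 1 on the log2 scale and 71% of those changed by 2. Alternatives were DESeq2 1.42.0, no filter, deeper wells, thinned cells, another Leiden resolution, Xist-only cells, single clusters and leaving out plates. Gene coordinates are from GENCODE vM21 on GRCm38. All 10 genes are named. One gene of the other lists is not reported here. Of the other lists, only some of the genes past the threshold are named, and for astrocyte-like against tanycyte-like cells none are. A listed gene that is not named may therefore have passed the threshold. Outside the lists, the 5 genes most like the members' mean profile are named. The members, lists and markers were chosen with earlier results of these data known.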

Additional observations from a re-analysis of the deposited data

Results flagged for a closer look

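The fasting difference of Ldha differed between AgRP-like and other neurons, by 1.21 on the log2 scale (SE 0.22) in the fit with edgeR. The comparison was added after the values had been seen and uses the fasted and fed values that the choice of genes rests on, so it restates them and is no independent test. Over the alternatives it ran from 0.85 to 1.36. Its SE was wider with DESeq2's Wald test, at 0.37. In cells thinned to 1000 transcripts the difference was 0.85 with an SE of 0.92, so its size is poorly fixed there. Of the 23 fasted AgRP-like cells, 22 came from a cluster that held 1 fed cell, and there were 25 fasted other neurons. The part of the plate in this difference was not tested.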

How the results depend on the processing

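No paired analysis was possible because only 1 plate was fasted and replicate numbers of fasted and fed plates do not pair. Comparisons between classes had plate as the block; with no replicate block, the genes past the threshold numbered 6531 against 7196 for tanycyte-like cells and neurons, 1043 against 1799 for AgRP-like and other neurons, 2320 against 2599 for astrocyte-like and 3575 against 3716 for endothelial-like against tanycyte-like cells. Other counts past the threshold moved by over 1.5 times, and the cause was not tested. In cells thinned to 1000 transcripts, which hold fewer transcripts, they were 953, 114, 423 and 479 in these 4 comparisons. DESeq2's Wald test gave 1167 for AgRP-like and other neurons and 1487 for astrocyte-like against tanycyte-like cells. Leaving out 1 plate gave 1190 to 2038 for AgRP-like and other neurons. Among fasted against fed comparisons, tanycyte-like cells had 332 genes past the threshold, 31 with DESeq2's Wald test, 193 with no filter, 10 thinned, 13 in Xist-only cells, 142 and 75 in clusters 1 and 4 alone and 143 to 246 with 1 fed plate left out. Neurons had 37, and 61, 395, 9, 5 and 101 to 1058 in the same order without the single clusters, the highest without fed plate 1. AgRP-like neurons had 694, 181 with DESeq2, 4 thinned and 57 in Xist-only cells. Other neurons had 18, 184 with no filter, 0 thinned and 96 to 638 with 1 fed plate left out. Astrocyte-like cells had 32, and 1, 16, 4 and 13 with DESeq2, no filter, thinning and Xist-only cells, 12 in wells of at least 3000 transcripts and 1 at Leiden resolution 0.8, and could not be fitted without fed plate 2 or 3. Endothelial-like cells had 1, 0 with DESeq2, 12 with no filter, 54 in Xist-only cells, 52 without the cluster seen on 1 plate and 0 to 58 with 1 plate left out. Vascular and leptomeningeal cell-like cells had 56, and 0, 29, 1, 37 and 6 to 121 with DESeq2, no filter, thinning, Xist-only cells and 1 plate left out. The fasting difference between tanycyte-like cells and neurons had 98, and 2, 50, 1 and 0 with DESeq2, no filter, thinning and Xist-only cells. That between AgRP-like and other neurons had 178, 16 with DESeq2, 2 thinned, 57 in Xist-only cells and 254 to 389 with 1 plate left out. The no-filter fit moved the median of all genes from -0.02 to -0.43 between tanycyte-like cells and neurons, where Eno1 was at 0.67 and Ldha at 0.12. In fasted tanycyte-like cells the members fitted were negative under the alternatives run, except Hk1 at 0.55 in Xist-only cells, and Pgam1 at 0.54 and Gapdh at 0.26 with no filter. Over single genes, 892 alternative values kept direction and side of the threshold or, where given with no test, moved by less than the SE, 54 given with no test moved by more, 32 of them in thinned cells, 17 lost the threshold and 1 gained it. Depth limits Slc2a3, Pgam1 and Gapdh in tanycyte-like cells most. No alternatives were run for Xist-only against Y-only cells.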

Other observations

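Over 36 class-by-plate sums and 9883 genes, the genes outside the lists whose log2 CPM was most like the mean profile of the 10 members were Maged1 (Pearson r = 0.898), Ampd2 (0.884), Hap1 (0.878), Magee1 (0.873) and Wdr6 (0.866). The sums share plates, depth and cells, so these values are descriptions and carry no test. Among the members, r with the mean profile of the 10 genes ran from 0.354 for Gapdh to 0.886 for Pkm. Between pairs it ran from -0.16 for Ldha with Gapdh to 0.79 for Tpi1 with Aldoa.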
